A study of Mus musculus with 2 samples.

Results

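The unfolded protein response and the folding machinery of the endoplasmic reticulum (ER) were followed through 32 genes in cultured mouse hepatocytes given an agonist of the liver X receptors (LXR). The genes were taken by symbol from the deposited gene table, in which each matched 1 of 36808 rows. They form 4 groups: 4 sensors and transcription factors, 15 chaperones and folding enzymes, 7 genes of ER-associated degradation and 6 genes of the ATF4 branch. The tested culture had received 1 µM GW3965, a synthetic LXR agonist, and its partner the solvent DMSO. Both were primary hepatocytes of C57Bl6 mice kept in William E medium with serum, insulin and dexamethasone, a glucocorticoid. The labels name no genetic change and do not say how many animals gave the cells. Each group had 1 library, so no difference below has a replicate check. The table heads its other column GL, taken here for GW3965 since the labels hold no further sample. That reading is not certain.

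Hepatocytes secrete much of the protein of blood plasma, and that protein is folded in the ER. Its lumen holds chaperones of the HSP70 and HSP90 families, lectins that hold glycoproteins, and disulfide isomerases. When unfolded protein builds up, the membrane sensors IRE1α, PERK and ATF6 start the unfolded protein response. IRE1α splices Xbp1 mRNA into the message of an active transcription factor, ATF6 is cut to release another, and both act on chaperone and degradation genes. PERK phosphorylates eIF2α, which slows translation and favours that of ATF4, a factor for genes of amino acid supply and stress. Other eIF2α kinases feed the same ATF4 arm, the integrated stress response.

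Levels are given in FPKM, which corrects fragment numbers for the length of the transcript and the size of the library, so that genes can be set beside each other. A ratio is the log2 of GW3965 over DMSO after 1 FPKM was added to both, which understates differences of genes with low levels. Counts cover genes that reached 1 FPKM in GW3965 or in DMSO. The steps between low values placed the scale at about 77500000 fragments for GW3965 and 62400000 for DMSO. Across the 11796 genes at the minimum the median ratio was 0.01. All 8 LXR target genes chosen as a control (Abca1, Abcg1, Scd1, Scd2, Srebf1, Lpcat3, Mylip and Fasn) were at least 1.5-fold higher in GW3965. Their log2 ratios ran from 0.95 to 2.40, with a median of 1.70. The authors' deposited table did not call Srebf1, Lpcat3 and Fasn among them, at log2 folds of 1.42, 1.27 and 1.33. A gene without a call there can thus differ by more than 1.5-fold between the libraries. Of 9 hepatocyte markers with usable values, 8 reached the minimum. Tat, a glucocorticoid-responsive liver enzyme, did not, at 0.447 FPKM in GW3965 and 0.962 in DMSO. Of the 8 markers at the minimum, 5 lay above 0 and 3 below, with a median log2 ratio of 0.05. The lowest were Serpina1c, at 113.7 FPKM in GW3965 and 150.5 in DMSO (-0.40), and Hnf4a, at 37.4 in GW3965 and 49.4 in DMSO (-0.39). Cps1 had the highest ratio (0.31) but a low level, 2.10 in GW3965 and 1.497 in DMSO. Alb was not usable, since the table marks it as holding too many fragments.

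The members differed little between the libraries. Of the 32, 31 reached the minimum. None of the 31 passed 1.5-fold (0 higher, 0 lower), a size that 1.02% of all genes passed upwards and 1.33% downwards. At a log2 ratio of 0.32 in size, 0 were higher and 2 were lower, Sdf2l1 and Manf, against 3.93% and 5.32% of all genes. The ratio was below 0 for 21 of 31 members, against 47.1% of all genes, and the median was -0.07. The sign varied by group. It was below 0 for 14 of 15 chaperones and folding enzymes and for 5 of 6 degradation genes, but for 1 of 6 genes of the ATF4 branch and 1 of 4 sensors and factors. The authors' deposited table called 0 of the 32, against 0.285% of the genes it tested. Sdf2l1 alone had, in the authors' deposited table, an unadjusted p under 0.05, against 3.34% of tested genes, and q was 0.999957 for every member.

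**Figure D1:**
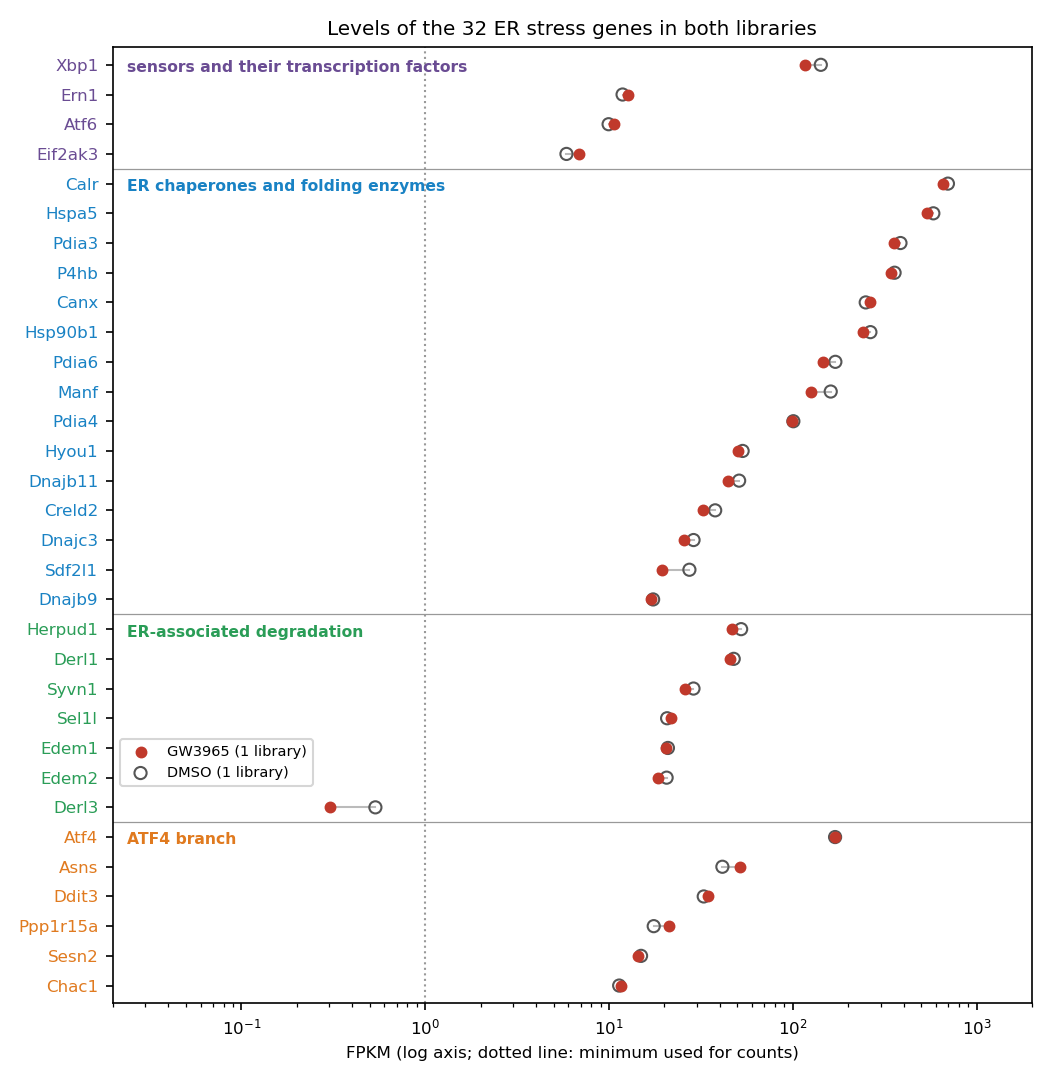
FPKM (log axis) of the 32 genes in the GW3965 library (filled red) and the DMSO library (open grey), 1 library each, grouped by role, with genes ordered by their GW3965 level. The pairs of points nearly coincide for most genes, Calr is highest at 655 in GW3965 and 698 in DMSO, and Derl3 alone lies under the minimum of 1.

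The 3 membrane sensors lay slightly above 0, at levels low among the members. In level, Ern1, Atf6 and Eif2ak3 exceeded 51.8%, 46.3% and 34.1% of all genes at the minimum. Ern1, which encodes the kinase and RNase IRE1α, had 12.6 FPKM in GW3965 and 11.9 in DMSO, a log2 ratio of 0.09. Atf6, the sensor that becomes a transcription factor after cleavage in the Golgi, had 10.7 in GW3965 and 9.95 in DMSO (0.09). Eif2ak3, which encodes PERK, had 6.87 in GW3965 and 5.87 in DMSO (0.20). These 3 ratios stood above those of 70.4%, 71.9% and 89.6% of all genes.

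Xbp1, the target of IRE1α, lay on the other side and at a far higher level. It had 116 FPKM in GW3965 and 142 in DMSO, a log2 ratio of -0.29, and 6.52% of all genes had a lower ratio. The authors' deposited table gives Xbp1 a log2 fold of -0.29 and p = 0.192, with a derived standard error (SE) of 0.22. The gene-level value adds the spliced and unspliced messages, so it does not show how much of Xbp1 mRNA was spliced.

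Chaperones and folding enzymes held the highest levels of the members and mostly lay slightly below 0. Calr, the lectin chaperone calreticulin, had 655 FPKM in GW3965 and 698 in DMSO (-0.09), and its membrane-bound relative Canx, calnexin, had 262 in GW3965 and 249 in DMSO (0.07), the only ratio of this group above 0. Hspa5, the HSP70 chaperone BiP that binds the sensors, had 539.9 in GW3965 and 581 in DMSO (-0.11). Hsp90b1, the HSP90 chaperone GRP94, had 241 in GW3965 and 264 in DMSO (-0.13). Hyou1, a large HSP70-like protein that serves BiP as a nucleotide exchange factor, had 50.5 in GW3965 and 53.3 in DMSO (-0.08).

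The disulfide isomerases were all slightly below 0. Pdia3, which works with the calnexin and calreticulin lectins, had 355 FPKM in GW3965 and 385 in DMSO (-0.12), and P4hb, the classical protein disulfide isomerase and a subunit of prolyl hydroxylase, had 341 in GW3965 and 358 in DMSO (-0.07). Pdia6, an isomerase that also acts on IRE1α, had 145 in GW3965 and 170.4 in DMSO (-0.23). Pdia4 had 99.1 in GW3965 and 100.7 in DMSO (-0.02).

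The 2 lowest ratios of this group belonged to Sdf2l1 and Manf, both partners of BiP. Sdf2l1, which joins BiP and DNAJB11 in a chaperone complex, had 19.4 FPKM in GW3965 and 27.4 in DMSO, a log2 ratio of -0.48, and 2.28% of all genes had a lower ratio. Manf, a small secreted protein that binds BiP, had 126 in GW3965 and 161 in DMSO (-0.35). Creld2, an ER stress-inducible protein with disulfide isomerase features, had 32.5 in GW3965 and 37.8 in DMSO (-0.21). Among the J-domain partners of BiP, Dnajb11 had 44.2 in GW3965 and 51.0 in DMSO (-0.20), Dnajc3, also known as the PERK inhibitor p58IPK, had 25.5 in GW3965 and 28.8 in DMSO (-0.17), and Dnajb9, which brings BiP to IRE1α, had 16.9 in GW3965 and 17.4 in DMSO (-0.04).

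The 15 chaperones and folding enzymes had a median log2 ratio of -0.12 as a group, and their FPKM summed to 2954 in GW3965 and 3183 in DMSO. This sum is dominated by Calr, Hspa5, Pdia3 and P4hb.

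The error that the files give is that of the authors' test, which rests on these libraries alone. Derived from the authors' deposited table as the size of the log2 fold over that of the test statistic, the SE of the 32 members had a median of 0.23 and ran from 0.18 to 1.38. Of 32 log2 folds in the authors' deposited table, 26 were smaller than their own SE, and 31 were smaller than 2 SE. The exception was Sdf2l1, with a log2 fold of -0.50, an SE of 0.21 and p = 0.0195 in the authors' deposited table. For Manf the authors' deposited table gives -0.36 with an SE of 0.36, and for Hspa5 -0.11 with an SE of 0.60.

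**Figure D2:**
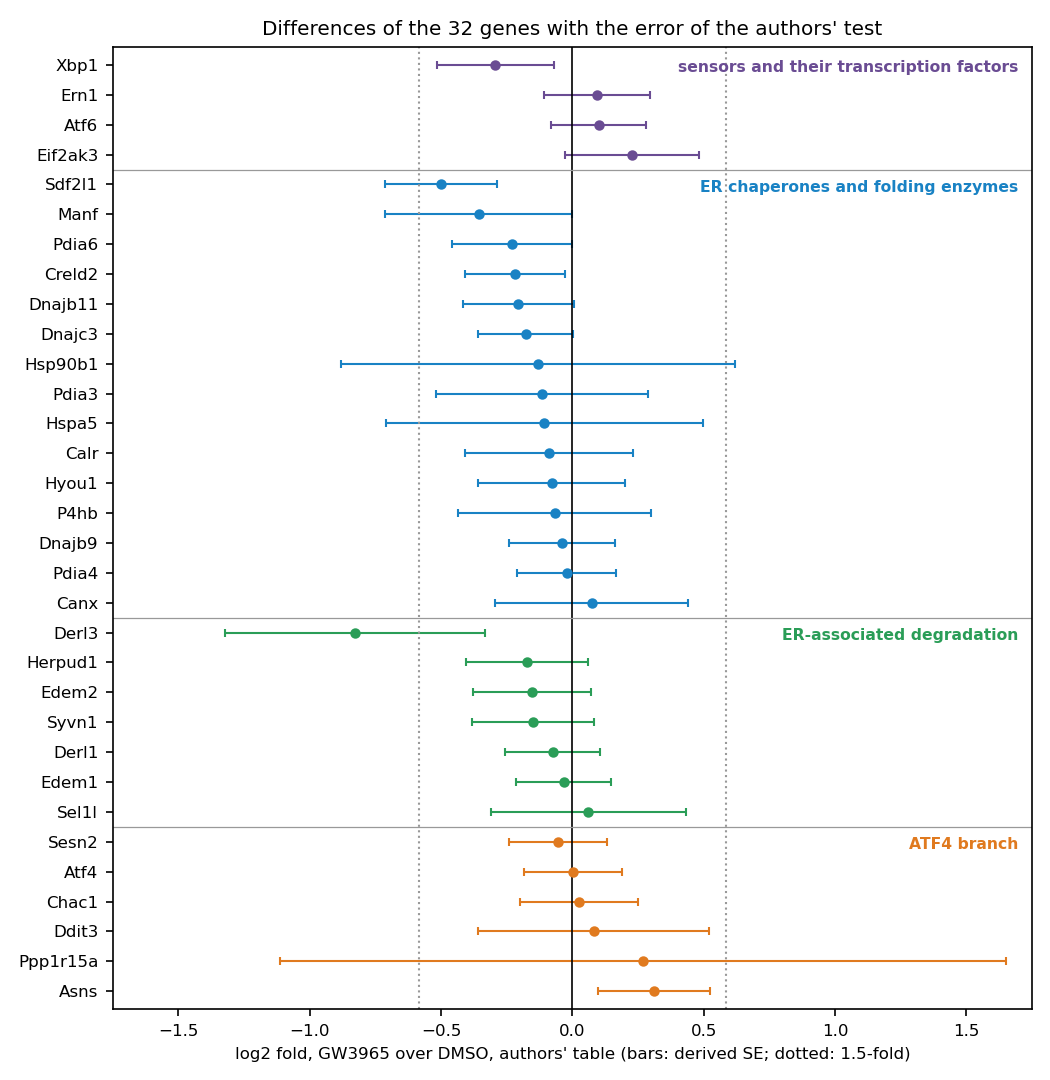
Log2 fold of GW3965 over DMSO for the 32 genes as the authors' deposited table gives it, without a pseudocount, by role, with bars of 1 SE derived from the authors' test and dotted lines at 1.5-fold. The bars of 26 genes cross 0, and the points of the chaperone group lie mostly left of 0 and those of the ATF4 branch mostly right.

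Counting error can be set beside that SE for the 5 members with 1 annotated transcript. Sdf2l1 stood at about 1454 fragments in GW3965 and 1654 in DMSO, a ratio of FPKM of 0.71 with an exact 95% counting interval of 0.659 to 0.760. Counting alone gives this log2 ratio an SE of 0.05, against the 0.21 of the authors' test. Creld2, at about 3088 fragments in GW3965 and 2893 in DMSO, had a ratio of 0.86 (0.816 to 0.904), and Dnajc3 one of 0.88 (0.859 to 0.909). The intervals of Chac1 (0.938 to 1.10) and Sesn2 (0.917 to 1.01) included 1. Such intervals leave out any difference between cultures and any error in the estimated scale.

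Genes of ER-associated degradation, which carries misfolded proteins back to the cytosol for the proteasome, had a median of -0.11 over the 6 at the minimum, and of -0.05 without those whose locus in the table holds another gene. Herpud1, a membrane organiser of the degradation complex, had 46.4 FPKM in GW3965 and 52.3 in DMSO (-0.17). Syvn1, the ubiquitin ligase HRD1, had 26.0 in GW3965 and 28.8 in DMSO (-0.14), while its partner Sel1l had 21.6 in GW3965 and 20.7 in DMSO (0.06), the only ratio of the group above 0. Edem1 and Edem2, which act on the mannose of glycoproteins to be degraded, lay at -0.03 and -0.15, with 20.5 and 18.5 FPKM in GW3965 and 20.9 and 20.6 in DMSO. Derl1, a derlin of the membrane channel, had 45.3 in GW3965 and 47.7 in DMSO (-0.07).

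Derl3, a derlin typical of secretory tissues, was the member under the minimum. It had 0.302 FPKM in GW3965 and 0.536 in DMSO, which at its longest annotated transcript stood for about 28 fragments in GW3965 and 40 in DMSO, and at its shortest for 5 in GW3965 and 7 in DMSO. The ratio of FPKM was 0.56, with an exact 95% counting interval of 0.335 to 0.936 at the longest transcript. The fewer fragments of the shortest transcript would widen that interval, which was not computed there, so counting does not settle the Derl3 difference. The authors' deposited table gives Derl3 p = 0.0933.

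The ATF4 branch stood near or above 0. Atf4 itself, whose protein is controlled mainly at translation, had 170.04 FPKM in GW3965 and 169.8 in DMSO (0.00). Asns, the asparagine synthetase and a standard ATF4 target, had 51.3 in GW3965 and 41.4 in DMSO, a log2 ratio of 0.30, and 95.5% of all genes had a lower ratio. In the authors' deposited table Asns had a log2 fold of 0.31 and p = 0.147, with an SE of 0.21. Ppp1r15a, the GADD34 subunit that directs a phosphatase to eIF2α, had 21.1 in GW3965 and 17.5 in DMSO (0.25).

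The other members of this branch differed by less. Ddit3, which encodes the factor CHOP, had 34.7 FPKM in GW3965 and 32.8 in DMSO (0.08). Chac1, a glutathione-degrading enzyme induced through ATF4 and CHOP, had 11.6 in GW3965 and 11.4 in DMSO (0.02). Sesn2, a stress protein that restrains mTORC1 when leucine is low, had 14.4 in GW3965 and 14.9 in DMSO (-0.05), the only ratio of the branch below 0. The median of the 6 was 0.05.

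Of 34 further targets of ATF4 and CHOP, 31 reached the minimum, and most lay above 0. Of the 31, 26 ratios did so, against 52.9% of all genes, and the median was 0.19. At a log2 ratio of 0.32 in size, 5 were higher and 2 were lower, against 3.93% and 5.32% of all genes. Slc7a11, the cystine transporter, had 13.3 FPKM in GW3965 and 8.97 in DMSO (0.52), with p = 0.00328 and q = 0.397 in the authors' deposited table. Phgdh, the first enzyme of serine synthesis, had 121 in GW3965 and 89.0 in DMSO (0.44). At the low end of this list, Gpt2, the mitochondrial alanine aminotransferase, had 71.1 in GW3965 and 122 in DMSO (-0.77), which is beyond 1.5-fold, and Atf3, a stress-induced repressor, had 12.7 in GW3965 and 16.2 in DMSO (-0.33).

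The other genes that meet the nascent protein lay mostly below 0, by small amounts. Of 39 other ER folding enzymes and lectins, 25 lay below 0 (64.1%, against 47.1% of all genes), with a median of -0.04. Among them the oxidase gene Ero1lb had 3.05 FPKM in GW3965 and 4.31 in DMSO (-0.39), the peptidyl-prolyl isomerase gene Fkbp11 had 19.8 in GW3965 and 24.95 in DMSO (-0.32), and the oxidase gene Ero1l and the isomerase gene Txndc5 stood at 0.19 and 0.21. Ero1l is also on the list of ATF4 and CHOP targets. Of 31 genes of translocation and oligosaccharyl transfer at the minimum, 22 lay below 0 (71.0%), with a median of -0.01. In it Sec61g, a small subunit of the translocon, had 75.8 in GW3965 and 96.6 in DMSO (-0.35), Magt1, of the oligosaccharyl transferase, stood at -0.21, and the translocation factor Sec63 and the signal peptidase gene Spcs3 at 0.13 and 0.14.

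Other degradation genes had the narrowest range of the 6 wider lists. Of 23, 10 lay below 0, against 47.1% of all genes, and the median was 0.01. The range ran from -0.11 for Selk, a selenoprotein of the ER membrane, to 0.18 for Nploc4, a cofactor of the extracting ATPase VCP. The ubiquitin ligase gene March6 stood at 0.13. Of 14 genes of eIF2 kinases, eIF2 and its exchange factor, 12 lay above 0, against 52.9% of all genes, with a median of 0.05. Their extremes were Eif2ak2, the interferon-inducible kinase PKR, at -0.15, Impact, whose product restrains the kinase GCN2, at -0.06, and the exchange factor genes Eif2b5 and Eif2b3 at 0.16 each.

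Of 19 other regulators of ER stress signalling, 15 reached the minimum. Of these, 11 lay above 0, against 52.9% of all genes, with a median of 0.07. Creb3l3, the liver-enriched ER-bound factor CREBH that is cleaved like ATF6, had 3.49 FPKM in GW3965 and 5.67 in DMSO (-0.57), with p = 0.0147 and q = 0.922 in the authors' deposited table. Wfs1, an ER membrane protein, had 12.6 in GW3965 and 9.57 in DMSO (0.36). Creb3l1, a relative of Creb3l3, stood at 0.30 and Bax, a mediator of mitochondrial apoptosis, at -0.19.

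**Figure D3:**
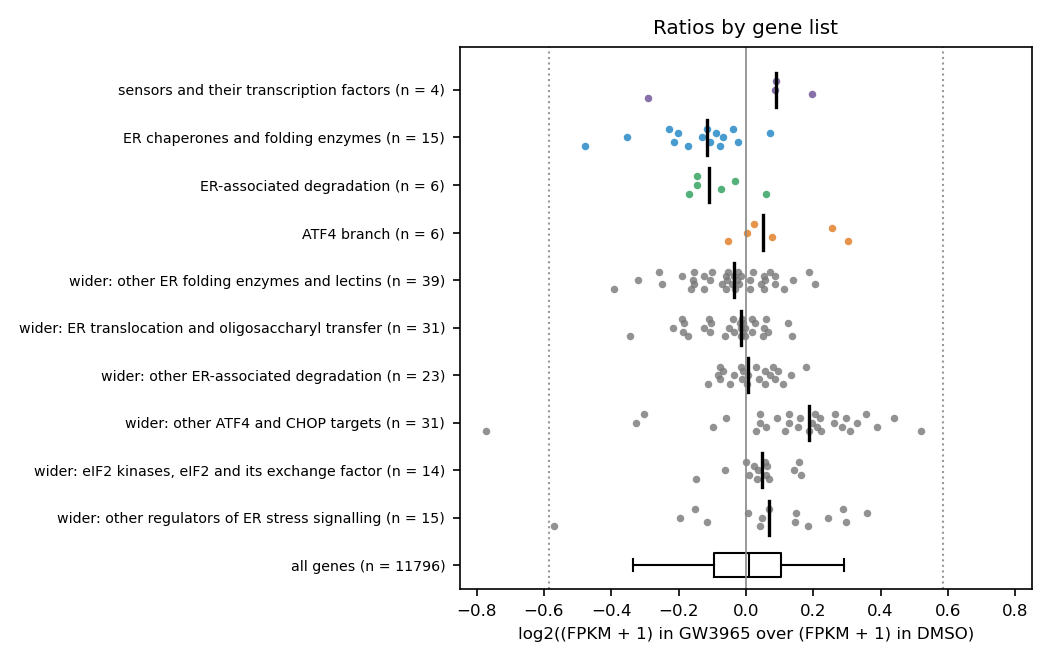
Log2 ratios of GW3965 over DMSO for the 4 member groups (coloured) and the 6 wider lists (grey), 1 point per gene, with black bars at each median, and all 11796 genes as a box from the 25th to the 75th percentile with whiskers to the 5th and 95th. Median bars of chaperones and degradation genes lie at -0.12 and -0.11, and that of the further ATF4 and CHOP targets at 0.19.

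Against the gene-to-gene spread, members lay far out about as often as other genes. By definition, 10% of genes lie outside the 5th and 95th percentiles of the ratio. Among the 5738 genes with 10 to 100 FPKM, the 5th and 95th percentiles of the ratio were -0.25 and 0.28, and 2 of 19 members lay outside, Sdf2l1 and Asns. Among the 724 genes with 100 to 1000 FPKM they were -0.29 and 0.36, and 1 of 11 members, Manf, lay outside.

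Transcript length moved with the ratio among the more abundant protein-coding genes. Among protein-coding genes at 10 FPKM or more, the median ratio was -0.05 for the 858 whose longest annotated transcript was under 1500 bases, 0.02 from 1500 to 3000 bases, 0.05 from 3000 to 6000 bases and 0.08 for the 714 above that. Sdf2l1, at 1108 bases, and Creld2, at 1366 bases, fall into the shortest class, and Ern1 and Atf6, at 6946 and 7246 bases, into the longest. Relative to the median of its own length class, Ern1 lay at 0.01, Atf6 at 0.01, Eif2ak3 at 0.15 and Xbp1 at -0.31, and their median was 0.01. Eif2ak3, at 6.87 FPKM in GW3965 and 5.87 in DMSO, was set against a class of genes at 10 FPKM or more, which it did not reach. On that scale 14 of 15 chaperones and 6 of 6 degradation genes lay below 0, with medians of -0.15 and -0.14. The ATF4 branch had a median of 0.07. By definition, a class median splits the genes of its class evenly between above and below 0 on that scale. Sdf2l1 then stood at -0.43 and Asns at 0.29. Before the class medians were taken off, the share of genes below 0 was 63.6% in the shortest class and 24.9% in the longest. The wider lists were not set against genes of like length. GC content showed no such order, with medians between 0.02 and 0.04 over 4 classes.

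**Figure D4:**
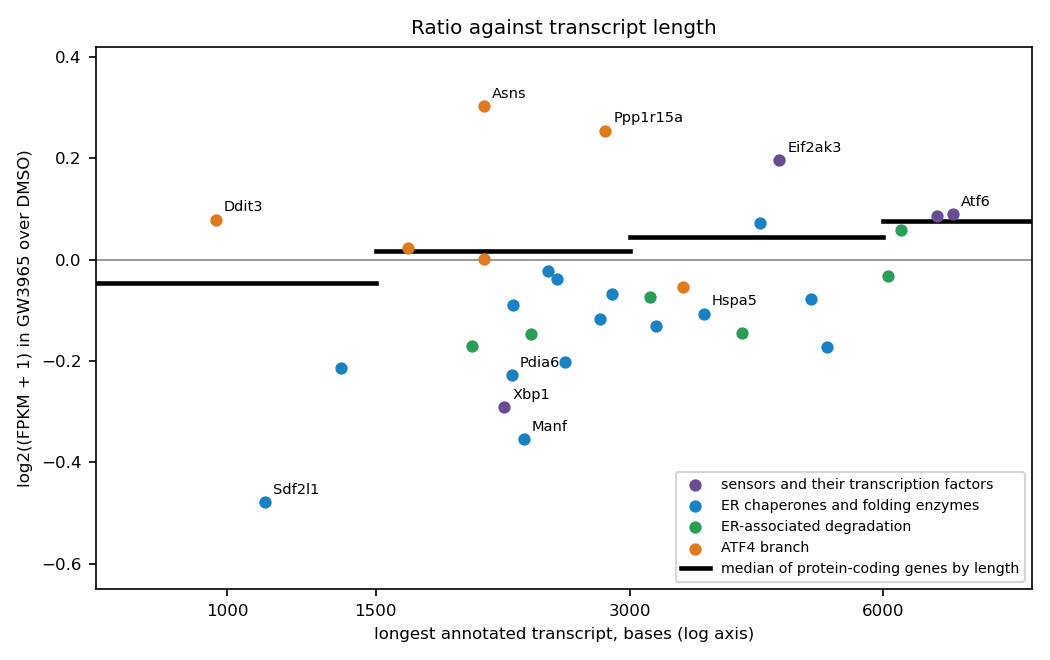
Log2 ratio of GW3965 over DMSO against the longest annotated transcript in bases (log axis) for the 31 members at the minimum, coloured by group, with black lines at the median ratio of protein-coding genes in 4 length classes. The lines climb with length, and most chaperone and degradation genes lie under the line of their class.

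Markers of other liver cells are given beside these results, in which their part was not tested. None was listed at 0 in both libraries. All 6 endothelial markers lay above 0, with a median of 0.28 and an FPKM sum of 151 in GW3965 and 126 in DMSO. Stellate cell and fibroblast markers lay above 0 in 5 of 6 cases at the minimum (median 0.23, sum 29.2 in GW3965 and 23.8 in DMSO), and macrophage markers in 2 of 4 (median -0.03, sum 101 in GW3965 and 82.2 in DMSO, nearly all of it Cd68). Of 3 cholangiocyte markers at the minimum, 2 lay above 0 (median 0.07, sum 3394 in GW3965 and 4150.2 in DMSO, nearly all of it Spp1). The 5 plasma and B cell markers with values, a lineage rich in ER chaperones, were all under the minimum. Fewer cells of a type and less RNA per cell cannot be told apart in such libraries.

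Some members share reads or a locus with other genes. Of the 32, 12 have a table locus that holds another gene, which for Eif2ak3, Atf6 and Pdia4 is a small RNA. Ppp1r15a shares its locus with Nucb1, Dhdh and Tulp2 and had the widest SE, 1.38 in the authors' deposited table. Manf shares its locus with Rbm15b and Vprbp. At most 12.97% of the 25-base words of a member occurred in transcripts of 1 other gene, for Dnajb9 with Gm6568, which had 0.0706 FPKM in GW3965 and 0.146 in DMSO. Without the members that share a locus, the median of the sensors and factors turned to -0.10, against 0.09 with them. Only Ern1 (0.09) and Xbp1 (-0.29) then remained in that group, so the value lies between genes of opposite sign. The median of the ATF4 branch without such members was 0.02, against 0.05.

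The promoters of the members were then read for the elements through which the pathway is known to act. RefSeq promoters (GRCm38.p6, 250 bases before to 50 after the start) were found for 28 of the 32, without Atf6, Hyou1, Manf and Derl1. The ER stress response element (ERSE), searched as CCAAT, 9 bases of any kind and CCACG on either strand, is bound by ATF6 and XBP1 together with NF-Y. It occurred in 9 of the 28 promoters (32.1%), against 39 of all 32851 (0.119%). Since these genes were chosen as known members of the pathway, the share describes them and tests nothing. The elements are shown with 10 flanking bases on each side, read 5′ to 3′ in the direction of the motif, with its fixed letters in capitals.
Hspa5 (chr2:34772025-34772043): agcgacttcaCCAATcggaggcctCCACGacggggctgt
Hsp90b1, distal (chr10:86705638-86705656): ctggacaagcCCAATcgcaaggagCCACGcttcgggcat
Hsp90b1, proximal (chr10:86705533-86705551): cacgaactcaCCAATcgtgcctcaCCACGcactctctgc
Calr (chr8:84847075-84847093): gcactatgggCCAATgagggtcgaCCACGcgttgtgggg
Canx (chr11:50325800-50325818): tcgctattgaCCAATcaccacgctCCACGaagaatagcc
Pdia6 (chr12:17266491-17266509): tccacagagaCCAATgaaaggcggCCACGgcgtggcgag
Dnajc3 (chr14:118937827-118937845): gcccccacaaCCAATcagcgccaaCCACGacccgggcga
Creld2 (chr15:88819520-88819538): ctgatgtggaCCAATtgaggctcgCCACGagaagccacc
Derl3 (chr10:75893242-75893260): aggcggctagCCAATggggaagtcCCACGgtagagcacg
Syvn1 (chr19:6046532-6046550): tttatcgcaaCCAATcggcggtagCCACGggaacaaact

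Of these elements, those of Hspa5, Canx, Pdia6, Dnajc3 and Syvn1 and the distal one of Hsp90b1 lie on the strand of their gene, and the others on the opposite strand. The gene strand is plus for Hspa5, Pdia6, Dnajc3, Creld2, Derl3 and Syvn1 and minus for Hsp90b1, Calr and Canx. Their centres lie between 35 bases (Syvn1) and 203 bases (Hsp90b1, distal) upstream of the annotated start. Members with an exact match had a median log2 ratio of -0.14 over the 8 at the minimum, 7 of them below 0, and members without one had a median of -0.03 over 19, 11 of them below 0. The members with a match are nearly all chaperones, so the 2 descriptions overlap. Sdf2l1, the lowest ratio at the minimum, had no exact match in its window. Elements with a spacing other than 9 bases, with a changed letter, or with CCAAT on the opposite strand from CCACG were not searched. Members without an exact match can thus still hold one. The window of Herpud1, counted as without a match, holds attgggccacg, with the reverse complement of CCAAT just before CCACG.

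The Hspa5 promoter is given whole, as that of the gene whose product is the central chaperone, at chr2:34771840-34772139 on the plus strand, with the fixed letters of the exact ERSE in capitals.
Hspa5 promoter: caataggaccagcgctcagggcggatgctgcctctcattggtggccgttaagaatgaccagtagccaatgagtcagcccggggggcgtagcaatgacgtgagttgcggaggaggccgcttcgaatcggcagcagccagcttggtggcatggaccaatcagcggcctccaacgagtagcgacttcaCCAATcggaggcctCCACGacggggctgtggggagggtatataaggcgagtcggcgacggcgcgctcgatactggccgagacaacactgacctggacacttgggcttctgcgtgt

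Another element occurred in the promoters of 2 of the 6 genes of the ATF4 branch and of 1 degradation gene. The letters TGATGNAA, a core of the C/EBP-ATF response element (CARE) through which ATF4 acts, occurred in the promoters of Asns, Chac1 and Herpud1, 3 of 28 (10.7%), against 3.97% of all promoters, on either strand. The core TGACGTGG of the unfolded protein response element, which XBP1 binds, occurred in 0 of 28, against 0.676% of all. Only these exact letters were searched, on either strand. The Hspa5 promoter shown above holds tgacgtga, which differs in the last letter, so variants of this core can be present in members. The CARE matches are shown in the same way.
Asns (chr6:7693225-7693232): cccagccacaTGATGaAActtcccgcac
Chac1 (chr2:119351049-119351056): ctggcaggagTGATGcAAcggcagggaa
Herpud1 (chr8:94386317-94386324): gggtgcgggcTGATGcAAcccgccgtgg

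The match in Asns, the gene with the highest ratio of the 32, lies on the strand of the gene (minus) and is centred 19 bases upstream of its start. Those of Chac1 and Herpud1, both plus-strand genes, lie on the opposite strand, centred 189 and 108 bases upstream. Ratios of the 3 genes were 0.30, 0.02 and -0.17. The letters CCACG alone, the 3′ part of the ERSE, occurred in 24 of 28 promoters (85.7%), against 32.8% of all, and every exact ERSE contains them.

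**Figure D5:**
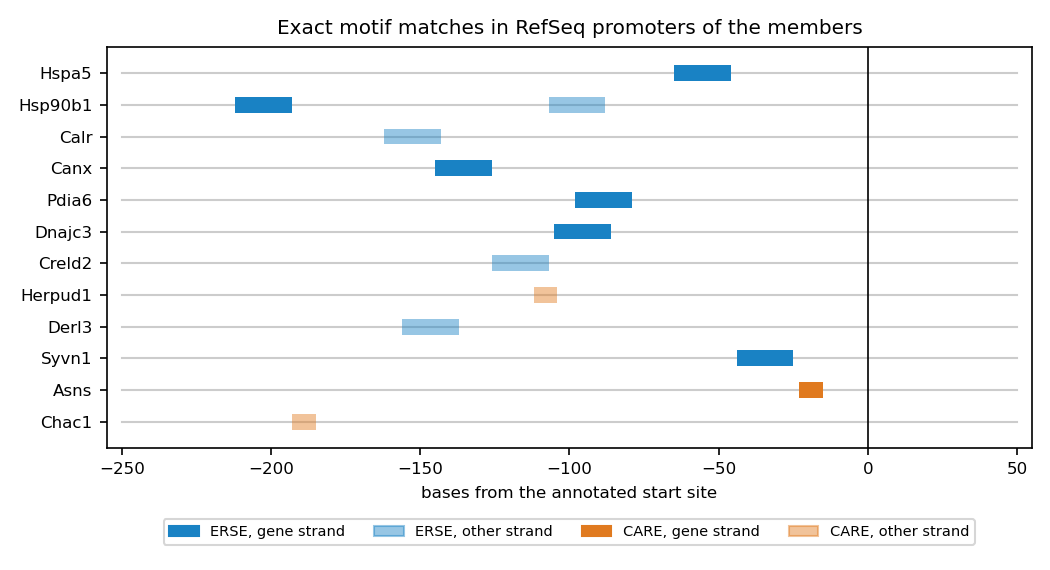
Positions of exact ERSE (blue) and CARE (orange) matches in bases from the annotated start for the 12 members that have one, dark on the strand of the gene and pale on the other. The 10 ERSE matches all lie upstream of the start, between 203 and 35 bases from it by their centres.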

How the data were processed

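The labels name primary hepatocytes given GW3965 or DMSO, with 1 TruSeq library of total RNA per group. CASAVA, TopHat2 2.0.6, Cuffdiff and Cufflinks 2.0.2 are named, with builds mm9 and NCBIM37, per the submitters' processing notes. Their settings and strand handling are not stated there. The deposited FPKM values, the p-value and q-value, the log2 fold and the test statistic (a score whose sign is opposite to the fold) are the authors', per the file headers. The 7 genes marked as holding too many fragments were left out.

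Ratios used a pseudocount of 1 FPKM, a minimum of 1 FPKM and 1.5-fold. With 1 library per group no test was run, and the SE is the size of the authors' log2 fold over that of their score. The members, lists, motifs and thresholds were chosen with earlier results of these data known. Named genes were all members, the control genes, and the 2 highest and 2 lowest ratios of each wider list, of which 1 is not reported here; values used for checks of tissue and shared reads are named besides. Of the wider lists' symbols, 3 were matched by identifier or synonym.

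Depth came from steps between low FPKM. Of 2565 low genes, 65.1% had library ratios within 0.1% of one whole number up to 10 over another, and 1.01% did after a shift of 3%. Genes with 1 GENCODE M21 transcript set the absolute scale, at which 83.4% of 573 low values lay within 2% of whole fragments. Lengths are from GENCODE on GRCm38, and promoters from RefSeq on GRCm38.p6. Protein ends were not analysed here. Tools were scipy 1.17.1, pandas 2.3.3, numpy 2.4.6 and matplotlib 3.10.9 under Python 3.11.15.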

Additional observations from a re-analysis of the deposited data

How the results depend on the processing

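Other pseudocounts, minima, thresholds, scalings and gene sets left 125 of 133 recomputed values within 1.5 times and on the same side. Some of the 125 could not change. Every member was tested in the authors' deposited table, every member at the minimum also reached 5 FPKM, and 0 past 1.5-fold forces 0 past 2-fold. The authors' calls of members were 0 under any minimum. Outside the 125, at a log2 ratio of 0.32 the count of lower members was 2. Without members that share a locus the median of sensors and factors turned to -0.10, because the genes with small RNAs at their locus drop out. Only Ern1 and Xbp1 then remain. On the same rule the median of degradation genes was -0.052 and that of the ATF4 branch 0.023. Relative to genes of like transcript length, an alternative chosen after seeing the data, the median of sensors and factors was 0.011. After centring, the wider degradation list turned to -0.0037 and the translocation list stood at -0.025, and without a minimum the other regulators stood at 0.045. Scaling to the same sum moved the median of all genes by 0.0022. No paired analysis was possible because GW3965 and DMSO had 1 library each. Among counting intervals at the longest transcript, that of Derl3 was the widest, and those of Pdia4, Dnajb9, Edem1, Atf4, Ddit3, Chac1 and Sesn2 included a ratio of 1. The longest transcript gives the most fragments, so for members with several transcripts these intervals are the narrowest. Ern1 stood for about 6671 fragments in GW3965 and 5035 in DMSO at its longest transcript, and for 504 and 380 at its shortest. Intervals at the shortest were not computed, so an interval here without 1 does not settle a difference.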
